A study of Mus musculus with 18 samples.

Results

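The genes described here make and load MHC class I molecules in primary murine RPTEC, the epithelial cells of the renal tubule. The 10 genes were chosen with earlier results of these data known, so their counts below are descriptions of a chosen set. They were picked by symbol: H2-K1 (Entrez Gene 14972), H2-D1 (14964), B2m (12010), Tap1 (21354), Tap2 (21355), Tapbp (21356), Psmb8 (16913), Psmb9 (16912), Psmb10 (19171) and Nlrc5 (434341). All 10 were found among the 36528 genes of the count files. Of these 10, 9 passed the filter on low counts that left 15521 genes to test, and Nlrc5 did not.

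The study asked how much of the TWEAK response of RPTEC requires NF-κB-inducing kinase (NIK), the kinase of the non-canonical NF-κB pathway. Cells of C57BL/6 mice from a commercial supplier received vehicle (DMSO), the TNF family cytokine TWEAK at 100 ng/mL, or TWEAK at 100 ng/mL together with the NIK inhibitor NIK SMI1 at 3 μM. Each treatment was collected at 6 h and at 24 h and measured by RNASeq, giving 6 groups of 3 samples and 18 samples in all. No group received NIK SMI1 alone, so an effect of the inhibitor in unstimulated cells was not measured. The labels do not say that the 3 samples of a group came from separate animals or cell preparations, so the p-values measure only the spread between these samples, which may be technical.

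MHC class I molecules carry peptides from inside the cell to the surface, where CD8+ T cells read them. The peptides come largely from the proteasome, and cytokines such as interferon-γ exchange its constitutive catalytic subunits Psmb6, Psmb7 and Psmb5 for Psmb9, Psmb10 and Psmb8, the immunoproteasome. Tap1 and Tap2 pump the peptides into the endoplasmic reticulum, tapasin (Tapbp) holds the empty heavy chain (H2-K1 or H2-D1) with B2m beside the pump, and Nlrc5 is a transactivator of class I genes. Renal tubular cells carry class I at rest, and class I promoters are known to hold an enhancer bound by NF-κB dimers.

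The promoters of the heavy chains and of B2m are shown because they are the members whose window held the κB consensus, the sequence that NF-κB dimers bind. The windows run from 250 bases before to 50 bases after the RefSeq start of the gene, on build GRCm38.p6, and are written 5′ to 3′ on the strand of the gene with motif matches in capitals. The count files rest on NCBI build 37, and no position was converted between the builds. The H2-K1 window is chr17:34000298-34000597 on the minus strand, the H2-D1 window is chr17:35262844-35263143 on the plus strand, and the B2m window is chr2:122147437-122147736 on the plus strand.
H2-K1: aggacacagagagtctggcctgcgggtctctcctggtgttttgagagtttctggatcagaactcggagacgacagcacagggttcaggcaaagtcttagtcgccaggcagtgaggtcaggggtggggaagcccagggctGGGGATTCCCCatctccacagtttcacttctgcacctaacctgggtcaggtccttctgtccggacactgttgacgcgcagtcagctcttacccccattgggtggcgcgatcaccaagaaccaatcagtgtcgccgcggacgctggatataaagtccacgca
H2-D1: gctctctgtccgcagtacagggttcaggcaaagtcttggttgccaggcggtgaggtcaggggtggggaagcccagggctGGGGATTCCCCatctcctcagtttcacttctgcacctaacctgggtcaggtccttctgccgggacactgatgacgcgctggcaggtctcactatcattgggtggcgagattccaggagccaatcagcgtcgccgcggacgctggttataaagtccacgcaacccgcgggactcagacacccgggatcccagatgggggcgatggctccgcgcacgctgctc
B2m: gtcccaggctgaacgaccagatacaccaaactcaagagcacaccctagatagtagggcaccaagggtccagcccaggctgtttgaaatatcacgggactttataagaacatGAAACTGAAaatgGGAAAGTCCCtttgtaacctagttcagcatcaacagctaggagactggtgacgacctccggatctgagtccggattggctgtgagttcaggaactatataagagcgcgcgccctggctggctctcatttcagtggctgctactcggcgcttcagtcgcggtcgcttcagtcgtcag
The capitals in H2-K1 and H2-D1 are a pair of overlapping κB matches, at bases -111 to -101 of H2-K1 and at -171 to -161 of H2-D1, counted from the start. They lie in an identical run of 47 bases, the longest shared by the windows of these related class I genes. A second RefSeq start of H2-K1 gave an overlapping window with the same matches, which is not shown. In B2m the interferon-response motif GAAANNGAA matched at bases -139 to -131 (GAAACTGAA), and the κB consensus matched on the opposite strand at -126 to -117.

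A window was at hand for 8 of the 10 genes, all but Tap2 and Nlrc5. The κB consensus was present in 3 of these 8 genes, and in 8.46% of all 32841 promoter windows of the same length. The interferon-response motif GAAANNGAA was found in B2m alone among the 8 and in 8.56% of all windows. Only exact matches to the letters of each motif were counted. The lack of a match thus does not show that a κB site or an interferon-response element is absent. The windows of Tap1, Tapbp, Psmb8, Psmb9 and Psmb10 held neither of these motifs on either strand. Tap1 and Psmb9 are neighbours transcribed in opposite directions, and their windows overlap.

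Sample totals ran from 18040966 to 51956444 counted reads (median 35374254). Levels are given as CPM, counts per 1000000 of the TMM-scaled library size, and 3 reads corresponded to 0.0585 to 0.169 CPM. The epithelial markers Epcam, Cdh1, Krt8 and Krt18 summed to 6938 to 9305 CPM in the 18 samples. The defining proximal tubule transporters Slc34a1 and Slc22a6 had at most 1 read in any sample and Aqp1 at most 18. Of the other proximal markers listed, Lrp2 (megalin) had 2 to 15 reads, Ggt1 10 to 95, Cubn 53 to 186 and Slc5a2 119 to 402 reads, in all 18 samples. The proximal identity in the name of the cells thus rests on low counts of part of the list. Of the leukocyte list, whose cells express class I and the immunoproteasome highly, Cd3e and Ncr1 had 0 reads in every sample and Ptprc at most 11. The 8 leukocyte markers summed to 11.3 to 14.6 CPM over the samples, most of it Cd68, with 13.3 to 14.6 CPM in the TWEAK samples at 6 h and 12.0 to 13.7 CPM at 24 h. In bulk RNA, fewer cells expressing a gene and less RNA per cell cannot be told apart.

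Per kilobase of exon, the scale on which genes can be compared, class I chains and tapasin were by far the most abundant of the 10. In vehicle samples at 6 h the order was B2m at 64.5 ± 2.72 CPM per kb (SD, n = 3), H2-D1 at 53.3 ± 1.07, Tapbp at 43.8 ± 1.23 and H2-K1 at 35.6 ± 2.62 CPM per kb. Psmb10 followed at 13.5 ± 0.0117, Tap1 at 6.88 ± 0.484 and Tap2 at 1.54 ± 0.0806 CPM per kb. Psmb8 stood at 0.473 ± 0.107, Psmb9 at 0.169 ± 0.0561 and Nlrc5 at 0.0177 ± 0.0079 CPM per kb. The sample ranges of neighbours in this order did not overlap. Reads that align to several class I genes were not counted, so H2-K1 and H2-D1 may stand too low in this order. With TWEAK at 24 h the same genes held the upper places, but H2-D1 (76.0 to 78.6 CPM per kb) and Tapbp (73.8 to 76.9) then overlapped.

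**Figure D1:**
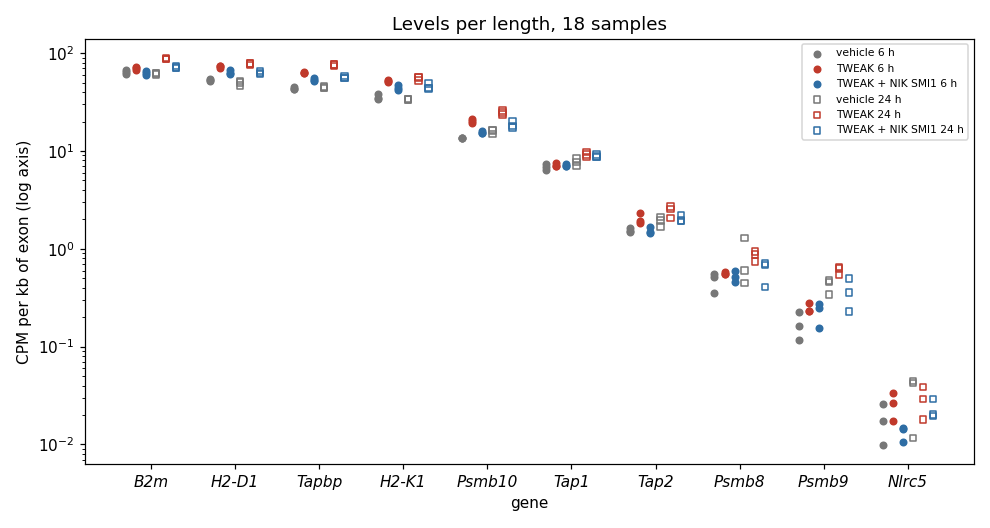
Level of each gene per kilobase of exon (log axis) in the 18 samples, with circles for 6 h and squares for 24 h, grey for vehicle, red for TWEAK and blue for TWEAK with NIK SMI1. B2m, H2-D1, Tapbp and H2-K1 lie between 33.5 and 88.8 CPM per kb in every sample, and Psmb8, Psmb9 and Nlrc5 stay below 1.29.

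TWEAK raised the class I chains, tapasin and Psmb10, while Psmb8 and Psmb9 stayed below 1.8 CPM in every sample. With edgeR's quasi-likelihood test and Benjamini-Hochberg adjustment, 6 of the 10 genes were higher with TWEAK than with vehicle at 6 h (H2-K1, H2-D1, B2m, Tap2, Tapbp and Psmb10), against 11.7% of all genes tested. At 24 h 7 of the 10 were higher, with Tap1 added, against 18.3% of all genes tested, and 0 of the 10 were lower at either time, against 12% of all genes at 6 h and 20.7% at 24 h. The changes were moderate. None of the 10 rose above 2-fold, the fold cut-off of the study for TWEAK inducible genes, while 1.75% of all genes did so with an adjusted p under 0.05 at 6 h and 2.34% at 24 h. The 9 genes tested had a median change of 0.45 at 6 h and 0.55 at 24 h (log2), beside medians of all genes of -0.0034 and -0.0055.

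Adding NIK SMI1 to TWEAK lowered 6 of the 10 genes at 6 h (H2-K1, H2-D1, B2m, Tap2, Tapbp and Psmb10), against 5.7% of all genes tested that were lower. At 24 h it lowered 5 of the 10 (H2-K1, H2-D1, B2m, Tapbp and Psmb10), against 8.29%. None of the 10 fell by more than 1.5-fold with an adjusted p under 0.05, which 1.1% of all genes did at 6 h and 1.75% at 24 h. Their median change (log2) was -0.23 at 6 h and -0.30 at 24 h. Both comparisons use the same TWEAK samples, so the rise with TWEAK and the fall with NIK SMI1 are not independent measurements.

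The inhibitor did not bring all genes back to the vehicle level. TWEAK with NIK SMI1 remained above vehicle in 4 of the 10 genes at 6 h (H2-K1, H2-D1, Tapbp and Psmb10), against 7.23% of all genes tested, and in 6 of the 10 at 24 h (the same 4 with B2m and Tap1), against 8.07%.

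**Figure D2:**
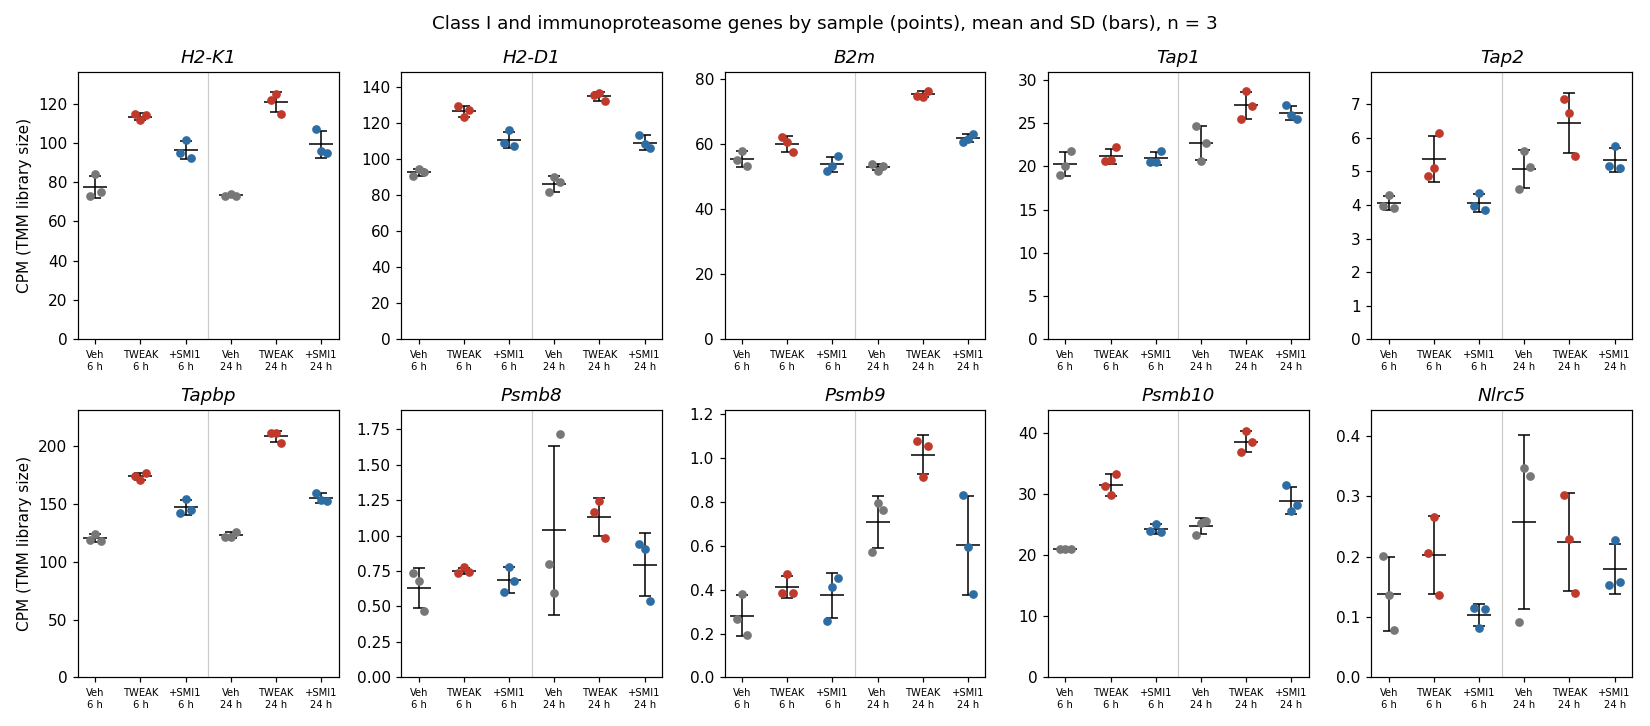
Level of each of the 10 genes in CPM (linear axis from 0) in the 3 samples of each group (points), with the mean and SD (bars). H2-K1, H2-D1, Tapbp and Psmb10 step up with TWEAK and partly down with NIK SMI1 (+SMI1) at both times without overlap of the samples, and B2m does so at 24 h.

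Among the class I chains, the classical heavy chain H2-K1 was measured at 73.2, 83.9 and 75.2 CPM in the vehicle samples at 6 h, at 115, 111 and 114 CPM with TWEAK, and at 94.8, 102 and 92.5 CPM with TWEAK and NIK SMI1. At 24 h it was at 72.9, 73.8 and 72.9 CPM with vehicle, at 122, 125 and 115 CPM with TWEAK, and at 107, 96.1 and 94.7 CPM with NIK SMI1 added. The 3 groups did not overlap at either time, with TWEAK highest and vehicle lowest. The log2 fold change with TWEAK was 0.55 (SE 0.0491, adjusted p = 9.35e-10) at 6 h and 0.72 (SE 0.0506, adjusted p = 4.2e-12) at 24 h. NIK SMI1 changed it by -0.23 (SE 0.0497, adjusted p = 0.00172) and by -0.28 (SE 0.0486, adjusted p = 9.88e-05). The inhibitor thus removed 42.6% ± 12.8 and 38.7% ± 13.3 of the rise. Here and below, the share removed is the ratio of the fitted log2 fold changes. Its SD is over the 3 samples with NIK SMI1 and was computed separately, from log2(CPM + 0.1).

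H2-D1, the other classical heavy chain of this strain, stood at 90.6, 94.2 and 92.8 CPM with vehicle at 6 h, at 129, 123 and 127 CPM with TWEAK, and at 109, 116 and 107 CPM with NIK SMI1 added. At 24 h it reached 136, 136 and 132 CPM with TWEAK from 81.5, 90.1 and 87.0 CPM with vehicle, and stood at 113, 108 and 106 CPM with NIK SMI1. Again no sample of a group overlapped with another at the same time. The log2 fold change with TWEAK was 0.45 (SE 0.0392, adjusted p = 6.38e-10) at 6 h and 0.65 (SE 0.0404, adjusted p = 3.37e-13) at 24 h, and that of NIK SMI1 -0.19 (SE 0.0397, adjusted p = 0.00154) and -0.30 (SE 0.039, adjusted p = 1.29e-06). The ratio of H2-K1 to H2-D1 per kilobase kept within 0.644 to 0.752 in all 18 samples.

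The class I genes are close in sequence, and uniquely aligned reads alone were counted, so the split of reads between H2-K1, H2-D1 and the H2-Q and H2-T genes is uncertain. H2-K1 and H2-D1 held 76.9% to 86% of the reads of 15 class I genes in each sample. The sum over these 15 genes rose with TWEAK by 0.39 (SE 0.0372, adjusted p = 2.69e-09) at 6 h and by 0.54 (SE 0.0377, adjusted p = 4.07e-12) at 24 h on the log2 scale. With NIK SMI1 it changed by -0.19 (SE 0.0375, adjusted p = 0.000994) and -0.23 (SE 0.0371, adjusted p = 3.54e-05). The sum thus moved in the same direction as H2-K1 and H2-D1. Reads that align to several of these genes were not counted and are missing from the sum.

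B2m, the light chain that every class I molecule needs, rose mainly at 24 h. It was at 55.0, 57.8 and 53.1 CPM with vehicle, at 62.0, 60.5 and 57.4 CPM with TWEAK, and at 51.8, 53.2 and 56.1 CPM with NIK SMI1 added at 6 h. The TWEAK and vehicle samples overlapped, and the log2 fold change was 0.12 (SE 0.0412, adjusted p = 0.0384), a call that was lost in the fit of the 6 h samples alone (adjusted p = 0.0826), without TMM (0.0742), with no filter (0.0712) and without vehicle replicate 1 or 3 or TWEAK replicate 1 or 2. At 24 h B2m stood at 74.8, 74.5 and 76.2 CPM with TWEAK, clear of vehicle at 53.8, 51.7 and 53.1 CPM and of NIK SMI1 at 60.6, 61.3 and 63.1 CPM. The log2 fold change was 0.51 with TWEAK (SE 0.0423, adjusted p = 1.46e-10) and -0.29 with NIK SMI1 (SE 0.0407, adjusted p = 6.09e-06), which is 56.6% ± 5.83 of the rise. At 6 h NIK SMI1 changed B2m by -0.16 (SE 0.0428, adjusted p = 0.0111), a call lost without TWEAK replicate 1 (0.0617) or NIK SMI1 replicate 1 (0.087), and the samples with the inhibitor were not distinguishable from vehicle (log2 difference -0.05, 95% interval -0.135 to 0.0423, adjusted p = 0.546).

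Of Tap1, Tap2 and Tapbp, Tapbp had the largest estimated changes with TWEAK at both times. Differences between these genes were not tested. Tapasin bridges the pump and the empty class I molecule. Its transcript was at 119, 124 and 118 CPM with vehicle, at 174, 171 and 177 CPM with TWEAK, and at 142, 155 and 145 CPM with NIK SMI1 at 6 h. At 24 h it was at 122, 122 and 126 CPM with vehicle, at 212, 211 and 203 CPM with TWEAK, and at 160, 153 and 153 CPM with NIK SMI1. The 3 groups were separate at both times. The log2 fold change with TWEAK was 0.53 (SE 0.0354, adjusted p = 2.8e-12) and 0.76 (SE 0.036, adjusted p = 1.08e-15), the highest value at 24 h among the 9 genes tested. NIK SMI1 changed Tapbp by -0.24 (SE 0.0357, adjusted p = 2.21e-05) at 6 h and by -0.42 (SE 0.035, adjusted p = 5e-10) at 24 h, or 45.3% ± 12.1 and 55.9% ± 4.75 of the rise.

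Of the pump chains, Tap1 was called with TWEAK at 24 h alone and Tap2 at both times. Tap1 was at 19.0, 20.1 and 21.8 CPM with vehicle and 20.6, 20.8 and 22.2 CPM with TWEAK at 6 h, with overlapping samples and a log2 difference of 0.05 (95% interval -0.0792 to 0.187, adjusted p = 0.629). At 24 h Tap1 rose to 25.5, 28.7 and 27.0 CPM with TWEAK from 24.7, 20.7 and 22.7 CPM with vehicle (log2 fold change 0.25, SE 0.0656, adjusted p = 0.00375). NIK SMI1 left it at 27.1, 25.9 and 25.5 CPM, overlapping with TWEAK, and the difference of -0.05 had a 95% interval from -0.183 to 0.0744 (adjusted p = 0.639). At 24 h Tap1 was thus above vehicle with and without the inhibitor (0.19 with it, SE 0.0657, adjusted p = 0.0428). The call with the inhibitor was lost without TWEAK replicate 1 at 6 h, vehicle replicate 2 or 3 at 24 h, or any of the 3 NIK SMI1 samples at 24 h, with adjusted p up to 0.226.

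Tap2, with 68 to 324 reads per sample, was measured less precisely. It was at 3.96, 4.30 and 3.90 CPM with vehicle, at 4.86, 5.11 and 6.14 CPM with TWEAK, and at 3.96, 4.36 and 3.84 CPM with NIK SMI1 at 6 h. TWEAK lay above the other groups without overlap, with a log2 fold change of 0.41 (SE 0.12, adjusted p = 0.0132) and of -0.40 with NIK SMI1 (SE 0.129, adjusted p = 0.0425). At 24 h the samples overlapped, at 4.48, 5.60 and 5.14 CPM with vehicle, 7.16, 6.73 and 5.45 CPM with TWEAK and 5.15, 5.76 and 5.10 CPM with NIK SMI1. The rise was 0.36 (SE 0.122, adjusted p = 0.0216) and the difference with NIK SMI1 was -0.26 (SE 0.116, adjusted p = 0.129). Each of these 3 calls of Tap2 was lost when single samples were left out, with adjusted p up to 0.104 for TWEAK at 6 h (without TWEAK replicate 3 or vehicle replicate 3) and 0.187 for TWEAK at 24 h (without vehicle replicate 1 or TWEAK replicate 1 or 2). For NIK SMI1 at 6 h it was up to 0.195 (without TWEAK replicate 2 or 3, any of the 3 NIK SMI1 samples, or vehicle replicate 3 at 24 h), and 0.0539 in the fit of the 6 h samples alone. The ratio of Tap1 to Tap2 per kilobase was lower in the TWEAK samples at 6 h (3.23 to 3.79) than in vehicle (4.17 to 5.00) or NIK SMI1 samples (4.20 to 5.09), p = 0.1 for each by an exact 2-sided permutation test, the smallest p that 3 samples against 3 can give.

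Of the immunoproteasome subunits, Psmb10 passed the test in each comparison with TWEAK and NIK SMI1, and Psmb8 and Psmb9, measured on far fewer reads, in none of them. Differences between the subunits were not tested. Psmb10, the subunit that replaces Psmb7, was at 21.1, 21.0 and 21.0 CPM with vehicle, at 31.3, 29.8 and 33.3 CPM with TWEAK, and at 23.9, 25.1 and 23.7 CPM with NIK SMI1 at 6 h. At 24 h it was at 23.2, 25.3 and 25.6 CPM with vehicle, at 36.8, 40.2 and 38.5 CPM with TWEAK, and at 31.4, 27.1 and 28.1 CPM with NIK SMI1. TWEAK samples were above, and NIK SMI1 samples between, without overlap at both times. The log2 fold change with TWEAK was 0.58 (SE 0.0585, adjusted p = 9.65e-09) and 0.66 (SE 0.0595, adjusted p = 7.02e-10). With NIK SMI1 it was -0.37 (SE 0.0606, adjusted p = 7.55e-05) and -0.42 (SE 0.0564, adjusted p = 2.9e-06), which is 64.4% ± 7.82 and 63.4% ± 16.9 of the rise. Psmb10 stayed above vehicle with the inhibitor, by 0.21 (SE 0.0628, adjusted p = 0.0274) and 0.24 (SE 0.0606, adjusted p = 0.00504). These calls were lost without any vehicle sample or NIK SMI1 replicate 1 or 2 at 6 h (adjusted p up to 0.124), and without vehicle replicate 1 or NIK SMI1 replicate 1 at 24 h (up to 0.0737).

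Psmb8, which replaces Psmb5, had 12 to 60 reads per sample, and Psmb9, which replaces Psmb6, had 8 to 45. Psmb8 ranged from 0.468 to 0.738 CPM with vehicle and from 0.737 to 0.776 CPM with TWEAK at 6 h, and from 0.595 to 1.71 CPM and 0.982 to 1.25 CPM at 24 h. The log2 difference with TWEAK was 0.30 at 6 h (95% interval -0.342 to 0.939) and 0.17 at 24 h (-0.426 to 0.775), so changes of the size seen for Psmb10 were not detectable with this precision. The value at 24 h turned on single vehicle samples, at 0.799, 0.595 and 1.71 CPM, and was 0.64 without replicate 3, -0.04 without replicate 1 and -0.04 without replicate 2. Without TWEAK replicate 2 it was 0.08 and without TWEAK replicate 3 it was 0.28. Psmb9 was at 0.195 to 0.381 CPM with vehicle and 0.383 to 0.470 CPM with TWEAK at 6 h, and at 0.571 to 0.794 CPM and 0.914 to 1.08 CPM at 24 h. All TWEAK samples of Psmb9 lay above vehicle at both times, but the log2 differences of 0.60 (95% interval -0.149 to 1.35, adjusted p = 0.271) and 0.55 (-0.0492 to 1.16, adjusted p = 0.144) did not pass the test. With NIK SMI1 at 24 h Psmb9 was at 0.829, 0.595 and 0.380 CPM, below the TWEAK samples. The difference of -0.70 (SE 0.28, adjusted p = 0.0886) did not pass the test. Leaving out single samples moved it between -1.03 and -0.48, with adjusted p up to 0.337. It passed only without NIK SMI1 replicate 1 (-1.03, adjusted p = 0.0278). Psmb8 differed by -0.48 with NIK SMI1 at 24 h (SE 0.284, adjusted p = 0.28).

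**Figure D3:**
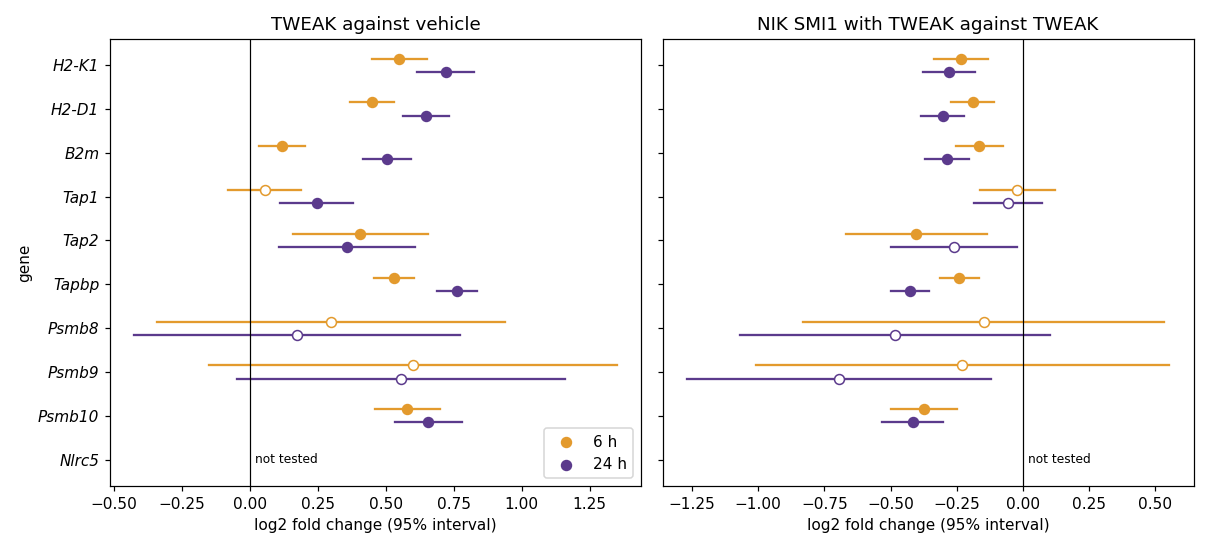
Log2 fold change with its 95% interval for TWEAK against vehicle (left) and for TWEAK with NIK SMI1 against TWEAK (right), at 6 h (orange) and 24 h (purple), with filled points where the adjusted p was under 0.05. The called changes with TWEAK lie between 0.12 and 0.76, and the intervals of Psmb8 and Psmb9 are several times wider than those of Psmb10.

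Each immunoproteasome transcript was also set against its constitutive counterpart, as a ratio per kilobase. Psmb10 was at 0.0984 ± 0.00279 of Psmb7 with vehicle, at 0.129 ± 0.00553 with TWEAK and at 0.108 ± 0.00541 with NIK SMI1 at 6 h (SD, n = 3). At 24 h these ratios were 0.115 ± 0.00594, 0.145 ± 0.0067 and 0.121 ± 0.00924. The TWEAK samples were highest without overlap at both times (p = 0.1 by the exact permutation test for each, the smallest possible). Psmb8 stayed at 0.0121 to 0.046 of Psmb5, and Psmb9 at 0.000909 to 0.00466 of Psmb6, in all samples. Transcripts of the constitutive subunits outnumbered those of the immunoproteasome for all 3 pairs in every sample.

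**Figure D4:**
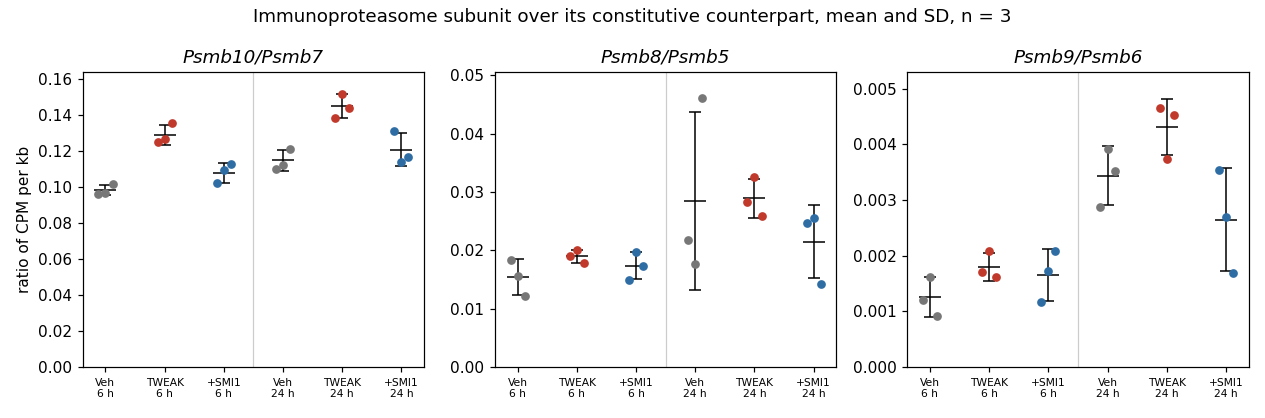
Ratio of CPM per kb of each immunoproteasome subunit to the constitutive subunit it replaces (linear axes from 0), per sample with the mean and SD of 3. Psmb10 reaches at most 0.152 of Psmb7 with TWEAK at 24 h, and the other ratios stay below 0.05.

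Nlrc5 had 2 to 13 reads per sample and 0.078 to 0.347 CPM, with overlapping vehicle and TWEAK samples at both times. At 24 h it was at 0.0913, 0.347 and 0.333 CPM with vehicle and at 0.302, 0.228 and 0.140 CPM with TWEAK. No change of Nlrc5 was detectable at this depth.

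The effect of TWEAK was larger at 24 h than at 6 h for 3 of the 10 genes by a test of the difference, against 3.24% of all genes tested. The log2 difference between the effects was 0.39 for B2m (SE 0.0591, adjusted p = 4.6e-05), 0.23 for Tapbp (SE 0.0504, adjusted p = 0.00292) and 0.20 for H2-D1 (SE 0.0562, adjusted p = 0.0225). For H2-K1 it was 0.17 (95% interval 0.0259 to 0.316, adjusted p = 0.145) and for Psmb10 0.08 (95% interval -0.0947 to 0.249, adjusted p = 0.681). The effect of NIK SMI1 was more negative at 24 h for 1 of the 10, Tapbp (-0.18, SE 0.05, adjusted p = 0.0311), against 1.62% of all genes. H2-D1 lost its call (adjusted p up to 0.113) without vehicle replicate 2 or TWEAK replicate 2 at 6 h, or vehicle replicate 1 or TWEAK replicate 2 at 24 h. The NIK SMI1 call of Tapbp was lost without TWEAK replicate 1 or 2 or NIK SMI1 replicate 2 at 6 h, or TWEAK replicate 1 or 2 or NIK SMI1 replicate 2 or 3 at 24 h (adjusted p up to 0.12).

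Vehicle samples were also compared between the times, where the number of members called was near the share of all genes. In vehicle samples, Psmb9 was higher at 24 h than at 6 h by 1.31 on the log2 scale (SE 0.356, adjusted p = 0.00596) and Psmb10 by 0.22 (SE 0.0623, adjusted p = 0.00784), which makes 2 of 10 against 15.5% of all genes that were higher. H2-D1 changed by -0.11 (SE 0.0408, adjusted p = 0.0468), 1 of 10 against 14.4% of all genes lower, and this call was lost in the fits without TMM scaling (adjusted p = 0.484) and without vehicle replicate 1 at 24 h (0.327), and without 11 other single samples (0.051 to 0.131). The vehicle samples of Psmb9 did not overlap between the times.

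Transcripts of pancreatic islet genes moved with a group. The 6 islet markers summed to 11.3 to 24.5 CPM in the samples of the other 4 groups, to 10.9, 0.208 and 3.39 CPM in the TWEAK samples at 24 h, and to at most 0.0633 CPM in the NIK SMI1 samples at 24 h. Without the 2 TWEAK samples above 1 CPM, an alternative chosen after the data were seen, 1 sample stood for TWEAK at 24 h and was assumed to vary like those of the other groups. On that assumption the same 5 genes were lower with NIK SMI1 at 24 h. H2-K1 then changed by -0.33 (adjusted p = 0.00159), H2-D1 by -0.32 (0.000294), B2m by -0.27 (0.00251), Tapbp by -0.44 (8.26e-07) and Psmb10 by -0.47 (0.000132). H2-D1 with TWEAK and Tapbp with NIK SMI1 then lost their calls of a difference between times, with 1 TWEAK sample left at 24 h. Their estimates were 0.22 and -0.20, beside 0.20 and -0.18 in the fit of all samples. The TWEAK difference between times was 0.375 for B2m and 0.25 for Tapbp, beside 0.39 and 0.23.

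Partners of the pathway were examined in lists chosen by function, and of each list the 3 genes with the largest change with TWEAK at 24 h are named. All 3 constitutive catalytic subunits are the counterparts above. Psmb7 rose at both times, by 0.19 (adjusted p = 0.000359) and 0.31 (adjusted p = 2.62e-07), and Psmb6 at 24 h by 0.20 (adjusted p = 0.000351), while Psmb5 differed by 0.12 (adjusted p = 0.12). Of the other 11 subunits of the 20S core, 1 was higher at 6 h (against 11.7% of all genes) and 7 at 24 h (against 18.3%). None was lower (against 12% and 20.7% of all genes), and the median at 24 h was 0.14. Psma6 led them with 0.46 (adjusted p = 4.64e-10), from 159 ± 3.85 to 219 ± 6.03 CPM (SD, n = 3), followed by Psma7 (0.19, adjusted p = 0.000194) and Psma1 (0.18, adjusted p = 6.17e-05). Psma6 was also the only one of the 11 that NIK SMI1 lowered, by -0.22 (adjusted p = 0.000393) at 6 h and -0.25 (adjusted p = 3.28e-05) at 24 h. That number is near the share of all genes lowered, 5.7% at 6 h and 8.29% at 24 h.

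Of 9 proteasome activators and assembly factors, 4 were higher with TWEAK at 6 h and 6 at 24 h (11.7% and 18.3% of all genes). None was lower (12% and 20.7% of all genes), and NIK SMI1 lowered 2 at each time (5.7% and 8.29% of all genes). Psme2, a subunit of the PA28 cap, rose from 18.2 ± 1.23 to 23.1 ± 1.1 CPM at 24 h (0.33 on the log2 scale, adjusted p = 0.00019) and was at 19.4 ± 0.907 CPM with NIK SMI1 (-0.25, adjusted p = 0.00536). The assembly chaperones Psmg3 (0.28, adjusted p = 0.000908) and Psmg2 (0.22, adjusted p = 0.000334) rose at 24 h and did not pass the test with NIK SMI1. Psme1, the partner of Psme2 and named after its values were seen, was lowered by NIK SMI1 at both times (-0.18, adjusted p = 0.00762, and -0.22, adjusted p = 0.00044).

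Peptide trimming and loading partners split. Tapbpl (TAPBPR), a peptide editor related to tapasin, rose from 12.1 ± 0.706 to 25.3 ± 1.78 CPM at 6 h (a rise of 1.07 on the log2 scale, SE 0.0682, adjusted p = 1.07e-12) and from 13.2 ± 0.244 to 25.2 ± 0.345 CPM at 24 h (0.94, SE 0.0712, adjusted p = 2.07e-11). NIK SMI1 changed Tapbpl by -0.66 (adjusted p = 1.05e-07) and -0.68 (adjusted p = 1.15e-08). Erap1, the aminopeptidase that trims peptides in the endoplasmic reticulum, rose by 0.37 (adjusted p = 7.28e-07) and 0.26 (adjusted p = 0.000149) and was lowered by NIK SMI1 at both times. The general chaperone Calr (calreticulin) fell at 24 h, by 0.29 on the log2 scale (adjusted p = 1.79e-08), and was higher with NIK SMI1 than with TWEAK (0.11, adjusted p = 0.0135). In all, 2 of the 5 were higher and 3 lower with TWEAK at 24 h, against 18.3% and 20.7% of all genes.

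Of 17 non-classical class I and class I-like genes, 10 were tested. With TWEAK 1 of these 10 was called higher at each time, near or below the share of all genes (11.7% at 6 h and 18.3% at 24 h). H2-Q4 was higher with TWEAK at 6 h (log2 fold change 1.25, SE 0.44, adjusted p = 0.0393) and at 24 h (1.11, SE 0.371, adjusted p = 0.0186), on at most 57 reads in a sample and with the uncertainty of near-identical family members. Fcgrt, the neonatal Fc receptor chain, was at 0.373 ± 0.131 CPM with vehicle and 0.179 ± 0.0884 with TWEAK at 24 h (-0.95, adjusted p = 0.0944), and Hfe, an iron regulator, at 1.04 ± 0.171 and 0.811 ± 0.143 CPM (-0.30, adjusted p = 0.454). The median of the 10 was -0.20 at 24 h.

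Factors that act on class I promoters included the largest rises with TWEAK among these lists. Of 15 tested, 9 were higher with TWEAK at 6 h and 8 at 24 h (11.7% and 18.3% of all genes), and 2 were lower at 24 h (20.7% of all genes). NIK SMI1 lowered 6 at each time (5.7% and 8.29% of all genes). Nfkb2, the precursor of the non-canonical subunit p52, rose from 128 ± 5.32 to 469 ± 12.7 CPM at 24 h (1.87 on the log2 scale, adjusted p = 1.2e-23) and was at 321 ± 3.57 CPM with NIK SMI1. Its partner Relb rose from 30.1 ± 2.13 to 67.7 ± 3.73 CPM (1.16, adjusted p = 9.58e-17) and was at 45.0 ± 0.612 CPM with NIK SMI1. Nfkb1 rose by 0.73 (adjusted p = 4.54e-16) and was lowered by 0.36 with NIK SMI1 (adjusted p = 2.76e-09). Irf1, named after its values were seen, rose by 0.51 at 6 h and 0.53 at 24 h (adjusted p = 2.65e-09 and 6.63e-10). The interferon genes Ifng, Ifnb1, Ifnk, Ifne, Ifnl2 and Ifnl3 had at most 3 reads in any sample and could not be tested.

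**Figure D5:**
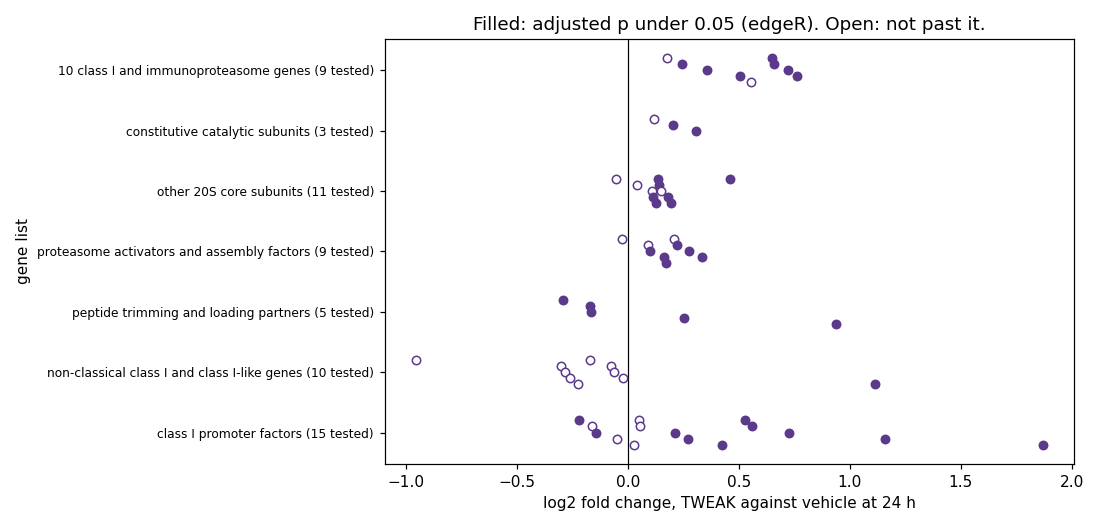
Log2 fold change of TWEAK against vehicle at 24 h for each tested gene of the 10 class I and immunoproteasome genes and of 6 pathway lists, with filled points where the adjusted p was under 0.05. The 9 members tested lie between 0.17 and 0.76, most 20S core subunits between 0 and 0.2, and the promoter factors reach 1.87.

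Across the 18 samples the 10 genes did not share 1 pattern. The Pearson correlation of log2(CPM + 1) was 0.983 between H2-K1 and H2-D1, 0.96 between H2-K1 and Tapbp, 0.855 between H2-K1 and Psmb10, 0.75 between H2-K1 and B2m and 0.436 between H2-K1 and Tap1. These describe 18 samples that share 6 treatments and a common scaling, and near-identical sequence in the case of H2-K1 and H2-D1. Outside the 10, the genes most like H2-K1 among 13167 genes were Mgat4b (0.979), Ndrg2 (0.978) and Sdhaf1 (0.974), and Mgat4b rose with TWEAK at 24 h by 0.60 on the log2 scale (adjusted p = 1.5e-13). The genes most like Tap1 were Gjc1 (0.909), Eci2 (0.9) and Emc2 (0.9), and those most like Psmb9 were Loxl3 (0.898), Lhfpl2 (0.897) and Dlx3 (0.891). For Nlrc5 the highest correlation was 0.74, with Mir1966, on counts too sparse to read.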

How the data were processed

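RNASeq of 18 RPTEC samples was used. With HTSeqGenie, the authors ran GSNAP against mouse NCBI build 37, and they deposited raw counts of uniquely aligned reads in the exons of each gene, so near-identical class I genes lose reads. The deposited files also give RPKM, scaled by the authors with exonic length and total reads, which entered no test, and that length, used here for levels per kilobase. The library kit does not mark strand. The labels and the methods differ on sequencer, read length and RNA input. Symbols came from RefSeq by Entrez identifier (31049 of 36528 matched, 85%), and promoter windows from RefSeq on GRCm38.p6.

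Genes with more than 10 reads in at least 4 samples (15521) entered an edgeR fit of all 6 groups (edgeR 4.0.16, R 4.3.3, TMM, estimateDisp, glmQLFit, glmQLFTest), with Benjamini-Hochberg adjustment over all of them and a threshold of 0.05. Standard errors came from the F statistic. The biological coefficient of variation was 0.0404, and samples of a group differed by more than sampling noise (chi-square per gene 2.17 to 9.76). With 3 samples a group, an exact permutation test cannot go below p = 0.1. Scripts were tested on simulated data. Alternatives were DESeq2 1.42.0, its size factors in edgeR, no TMM, no filter, filterByExpr, each time point alone, glmTreat, summed class I reads and leaving out each sample. Replicates 1 to 3 are names in accession order and pair nothing. Named are the 10 members, the 3 genes of each list with the largest change with TWEAK at 24 h, and the 3 genes most correlated with H2-K1, Tap1, Psmb9 and Nlrc5 among genes with a mean of at least 1 CPM. The members and lists were chosen with earlier results of these data known. A further motif that was searched is not reported here.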

Additional observations from a re-analysis of the deposited data

Results flagged for a closer look

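Interaction contrasts in edgeR found 4 effects that differed between the times. The TWEAK effect on the log2 scale was larger at 24 h by 0.20 for H2-D1 (adjusted p = 0.0225), by 0.39 for B2m (adjusted p = 4.6e-05) and by 0.23 for Tapbp (adjusted p = 0.00292). The NIK SMI1 effect on Tapbp was more negative at 24 h, by -0.18 (adjusted p = 0.0311). With 3 samples a group, single samples standing apart were not tested for.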

How the results depend on the processing

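No paired analysis was possible because the labels give no replicate numbers. The 6 h and 24 h calls of H2-K1, H2-D1, Tapbp and Psmb10 with TWEAK and with NIK SMI1 held under every alternative except glmTreat. glmTreat tests against the study's fold cut-offs, and it called 0 of the 10 genes in each of these 4 comparisons. No called change of the 10 genes was as large as these cut-offs. The share of all genes that glmTreat called was not computed, so the 0 shows nothing particular to the 10 genes. Without TMM, 5 genes in place of 3 differed between vehicle at 24 h and 6 h, with Tap1, Tap2 and Tapbp added and H2-D1 lost. B2m, called in neither fit, turned direction there (0.004246). Tap2 with NIK SMI1 against vehicle at 6 h, near 0, turned to -0.004605 without TMM (DESeq2 -0.0009034, DESeq2 size factors -0.0004276). In a further fit the TWEAK samples at 24 h over 1 CPM of islet markers were left out, a choice made after the data were seen. This left 1 TWEAK sample at 24 h, which was assumed to vary like the other groups. The NIK SMI1 difference between times of Tapbp was then -0.20 in place of -0.18 and lost its call. The TWEAK difference between times turned to 0.02673 for Tap2 and 0.01692 for Psmb8. The cause was not tested.

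Leaving out 1 sample at a time gave 4 to 6 genes higher with TWEAK at 6 h and 6 to 7 at 24 h, 4 to 6 lower with NIK SMI1 at 6 h and 5 to 6 at 24 h, and 3 to 4 and 4 to 6 above vehicle with NIK SMI1. The TWEAK effect differed between times for 2 to 3 genes, the NIK SMI1 effect for 0 to 1, and vehicle samples for 2 to 5. Values of genes that were not called turned direction in places. With TWEAK at 24 h Psmb8 ran from -0.04001 to 0.64. With NIK SMI1 against TWEAK at 6 h Tap1 ran from -0.04612 to 0.01377 and Psmb9 from -0.3624 to 0.04052. Against vehicle at 6 h, NIK SMI1 gave -0.008461 to 0.0948 for Tap1, -0.04962 to 0.04728 for Tap2 and -0.0566 to 0.2725 for Psmb8, and at 24 h -0.01008 to 0.1691 for Tap2, -0.5215 to 0.1583 for Psmb8 and -0.4712 to 0.07663 for Psmb9. The TWEAK effect between times ran from -0.1555 to 0.06515 for Tap2, -0.3386 to 0.3416 for Psmb8 and -0.3326 to 0.2187 for Psmb9, and the NIK SMI1 effect from -0.06951 to 0.01193 for Tap1 and -0.111 to 0.0006369 for Psmb10. Psmb8, Psmb9 and Nlrc5 had at most 60 reads in a sample.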
